A study of Mus musculus with 32 samples.

Results

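Expression of 8 genes of meiotic strand exchange, Dmc1, Psmc3ip, Mnd1, Brca2, Meiob, Spata22, Swi5 and Sfr1, was followed through the first wave of spermatogenesis in the mouse. They were taken as a list of known strand exchange genes, and all 8 were among the 20368 genes called expressed, which had at least 3 TPM (a measure of transcript abundance scaled to transcript length and to the size of the library) in at least 1 juvenile mouse. Poly-A RNA was sequenced from germ cells isolated from the testes of single C57BL/6J males at 8 days post partum (dpp, 3 mice) and at 10, 12, 14, 16 and 18 dpp (5 mice each), 28 mice in all. A second table held 4 adult samples, each of pachytene and diplotene spermatocytes pooled from 6 C57BL/6J males of 9 weeks and enriched by sedimentation at unit gravity. The labels give no mutation and no treatment in any group. Age was the named difference between the juvenile groups, and the adult samples differed from them in age, in the pooling of mice and in the enrichment of cells. The codes in the sample titles also differed between juvenile and adult samples. Index sequences of the younger mice came back from 14 dpp on. Whether libraries were made in sets is not stated. Since TPM no longer holds the read numbers, depth was unknown for every value and the spread between mice was the only measure of error.

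In meiotic prophase, programmed breaks cut both strands of the DNA, and the ends are trimmed to single strands. The recombinase DMC1, made only in meiotic cells, coats these strands and searches the homologous chromosome for a match. BRCA2 loads the recombinase, MEIOB and SPATA22 bind the single strands together with replication protein A, and PSMC3IP (also named HOP2) forms with MND1 a dimer that stimulates strand invasion. SWI5 and SFR1 form a further dimer, which stabilises recombinase filaments. Breaks are made in leptotene cells and most are repaired by late pachytene, and in the first wave of spermatogenesis these stages appear in order as the mice age.

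The members' transcript structures that gained most in share with age are shown first. Psmc3ip-202 keeps intron 1 of the gene, 84 bases at chromosome 11, 101095259 to 101095342, on the minus strand of GRCm38, which the protein-coding Psmc3ip-201 splices out. The retained bases are in capitals, between the last 30 bases of exon 1 and the first 30 bases of exon 2, and the spliced junction follows.
Psmc3ip-202: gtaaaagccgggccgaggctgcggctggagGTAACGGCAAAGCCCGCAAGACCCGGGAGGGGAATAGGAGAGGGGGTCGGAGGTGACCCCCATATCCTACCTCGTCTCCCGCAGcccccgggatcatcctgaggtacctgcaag
Psmc3ip-201: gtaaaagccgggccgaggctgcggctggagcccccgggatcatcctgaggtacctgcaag
Swi5-206, annotated as a target of nonsense-mediated decay, the pathway that destroys messages with an early stop codon, holds an exon of 284 bases at chromosome 2, 32280227 to 32280510, minus strand, that the protein-coding Swi5-207 lacks. The first 101 bases of this exon continue the reading frame up to the stop codon, here in capitals.
Swi5-206: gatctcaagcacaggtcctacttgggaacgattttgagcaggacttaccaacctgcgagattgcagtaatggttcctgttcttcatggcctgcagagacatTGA

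Markers of germ cells and of other testis cells were read in the same samples. The summed TPM of 4 germ cell genes (Ddx4, Dazl, Tex101 and Mael) ranged from 709 to 929 at 8 dpp, from 711 to 794 at 10 dpp and from 2216 to 2473 at 18 dpp, and all 4 were above 1 TPM at every age. Markers of zygotene and later spermatocytes (Sycp1, Sycp3, Hormad1 and Tex11) summed to between 286 and 342 TPM at 10 dpp, between 528 and 722 at 12 dpp and between 935 and 1182 at 18 dpp. Within that list Tex11 had means of 63.1, 67.5 and 51.1 TPM at these ages. The means of Sycp1, Sycp3 and Hormad1 rose from 10 to 12 dpp and from 12 to 18 dpp. Late pachytene markers (Ldhc, Pgk2, Hist1h1t, Ybx2 and Clgn), of which 4 of 5 averaged at least 1 TPM at 16 and 18 dpp, summed to between 174 and 317 TPM at 14 dpp, between 1041 and 2176 at 16 dpp and between 2733 and 5169 at 18 dpp. All 8 Sertoli cell markers were also present at every juvenile age, with sums from 7042 to 8090 TPM at 8, 10 and 12 dpp, from 5398 to 7373 at 16 dpp and from 3554 to 4634 at 18 dpp, and the peritubular list fell between 827 and 1519 TPM at 16 dpp and between 524 and 1034 at 18 dpp. The part that these cells took in the results for the members was not tested. In bulk samples such as these, fewer cells of a type and less RNA per cell cannot be told apart. In the adult samples the Sertoli list summed to between 343 and 499 TPM, and the spermatid list (Prm1, Prm2, Tnp1, Tnp2, Acrv1 and Spaca1) to between 872 and 1189 TPM against at most 16.98 TPM in any juvenile mouse.

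Dmc1 (ENSMUSG00000022429, chromosome 15 of GRCm38 from 79561497 to 79605109, minus strand), the meiotic recombinase, stood at a low plateau at 8 and 10 dpp and at a higher one from 12 dpp. It had 40.2, 28.3 and 39.2 TPM in the 3 mice of 8 dpp and 33.2, 38.1, 36.9, 31.8 and 34.9 TPM at 10 dpp. The mice of 12 dpp had 50.02, 53.2, 62.2, 56.7 and 53.2 TPM. No mouse of 12 dpp was as low as any of 10 dpp, and the rise was 0.64 on the log2(TPM + 1) scale (standard error 0.116, limma adjusted p = 0.000195). The mean was then 54.3 ± 6.12 TPM at 14 dpp (SD, n = 5), and it was 46.6 ± 9.82 TPM by 18 dpp (SD, n = 5), and no later step between neighbouring ages passed the test. At 18 dpp the values were 36.2, 38.8 and 44.3 TPM in mice 1 to 3 and 57.4 and 56.3 TPM in mice 4 and 5. With mice 1 to 3 alone at every age, the change from 16 to 18 dpp was -0.49 (limma adjusted p = 0.00318) against -0.18 with all mice (limma adjusted p = 0.187), and the rise from 8 to 18 dpp, 0.36 with all mice (standard error 0.133, limma adjusted p = 0.0194), was 0.16 and did not pass (limma adjusted p = 0.278). That rise was also lost without mouse 2 at 8 dpp (0.20, limma adjusted p = 0.222), without mouse 4 at 18 dpp (0.28, limma adjusted p = 0.0617) and without mouse 5 at 18 dpp (0.29, limma adjusted p = 0.0588). Nor did it pass with only the 2 ages in the fit (0.36, limma adjusted p = 0.128) or with quantile normalization (0.27, limma adjusted p = 0.0661).

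In the adult spermatocytes Dmc1 was below the 3 TPM used to call a gene expressed, at 0.620, 0.660, 1.03 and 0.520 TPM. The lowest of the 28 juvenile values was 28.3 TPM. The adult table was normalized apart from the juvenile one, so levels were set side by side and no test was made between them.

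**Figure D1:**
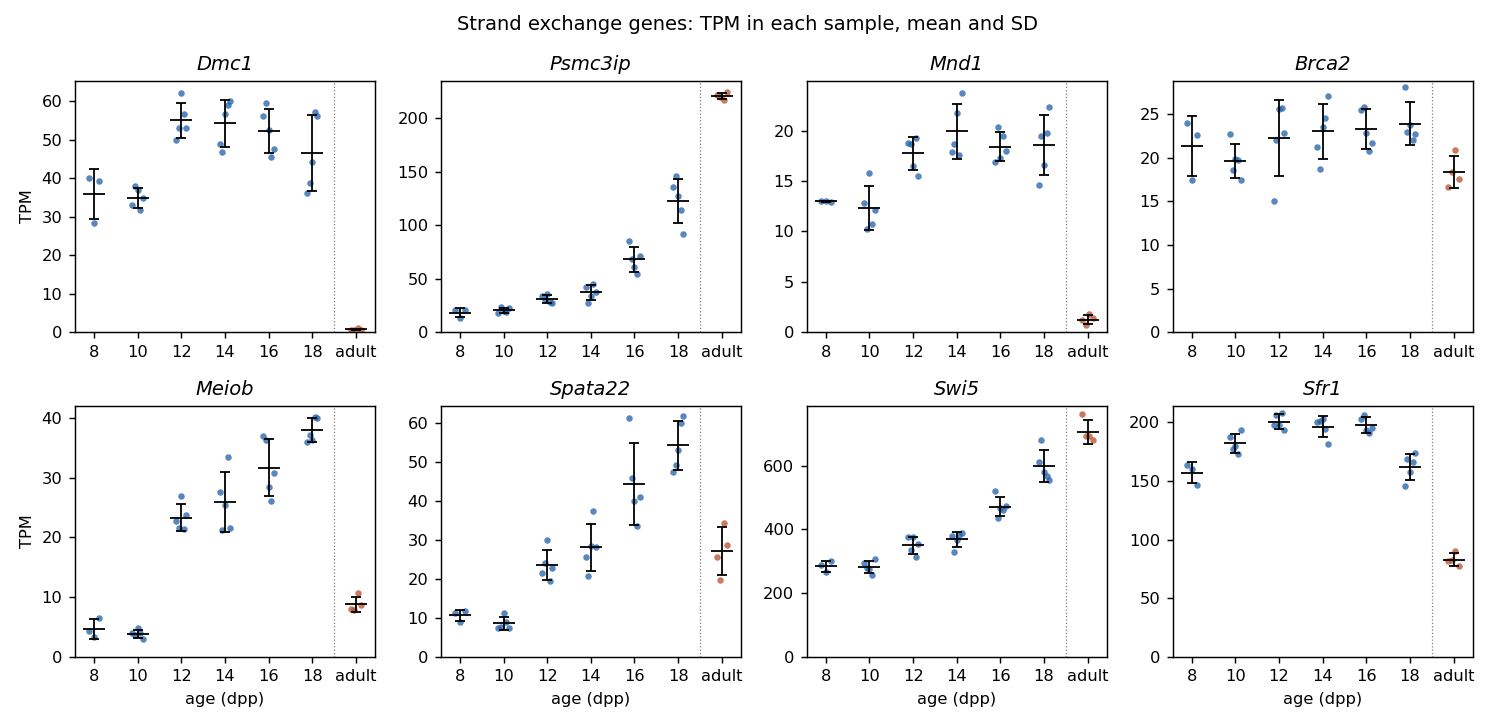
TPM of the 8 strand exchange genes in each mouse from 8 to 18 dpp (blue points, 3 mice at 8 dpp and 5 at each later age) and in the 4 adult samples of enriched spermatocytes (orange points), with the mean as a bar and the SD as whiskers, each vertical axis starting at 0. Dmc1 and Mnd1 step up between 10 and 12 dpp and are near 1 TPM in the adult samples, Psmc3ip and Swi5 climb to 18 dpp and are higher still in the adult samples, and Sfr1 falls from 16 to 18 dpp.

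Psmc3ip and Mnd1, whose proteins form a dimer, parted in level. Psmc3ip (ENSMUSG00000019303, chromosome 11 from 101091823 to 101095436, minus strand) had 20.3, 13.1 and 20.6 TPM at 8 dpp and 17.4, 23.2, 20.0, 18.5 and 22.5 TPM at 10 dpp. At 12 dpp it had 34.2, 29.8, 35.4, 27.8 and 26.9 TPM, all above the mice of 10 dpp (log2 fold change 0.58, standard error 0.144, limma adjusted p = 0.00457). At 14 dpp the mean was 37.1 ± 7.09 TPM (SD, n = 5), a difference from 12 dpp that did not pass. The steepest climb came later, with 85.2, 68.0, 61.0, 54.3 and 71.1 TPM at 16 dpp and 136, 146, 127, 114 and 91.7 TPM at 18 dpp. Each of these ages lay wholly above the one before. The steps were 0.86 from 14 to 16 dpp (standard error 0.144, limma adjusted p = 5.97e-05) and 0.84 from 16 to 18 dpp (standard error 0.144, limma adjusted p = 3.08e-05), and the rise from 8 to 18 dpp was 2.71 (standard error 0.166, limma adjusted p = 1.04e-13). Ranked among the genes that averaged 3 TPM or more, its level moved from percentile 43.4 at 8 dpp to percentile 90.3 at 18 dpp, and the adult samples held 221, 220, 217 and 224 TPM. The summed late pachytene markers were higher at each of these 2 steps, without overlap. The Sertoli sums, carried mostly by Clu (mean 4870 TPM at 14 dpp), overlapped between 14 dpp (5787 to 7171 TPM) and 16 dpp. They were lower without overlap from 16 to 18 dpp. Within that list Amh was lower at 16 dpp (90.46 to 123.95 TPM) than at 14 dpp (124.53 to 179.01 TPM). The other means were lower with overlap, except that of Amhr2 (577 TPM at 14 dpp and 581 TPM at 16 dpp). The part of these cells in the climb was not tested.

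Mnd1 (ENSMUSG00000033752, chromosome 3 from 84087933 to 84155786, minus strand) followed the shape of Dmc1 instead. It had 13, 13.07 and 12.89 TPM at 8 dpp, 12.8, 10.2, 15.8, 10.7 and 12.2 TPM at 10 dpp and 18.7, 18.7, 16.5, 19.3 and 15.5 TPM at 12 dpp. The rise from 10 to 12 dpp was 0.50 (standard error 0.110, limma adjusted p = 0.00141), although the highest mouse of 10 dpp and the lowest of 12 dpp overlapped. From 12 dpp the means stayed between 17.8 ± 1.65 and 19.9 ± 2.71 TPM (SD, n = 5), and no further step passed. The mice of 18 dpp, at 14.6, 19.5, 16.7, 19.8 and 22.4 TPM, all lay above those of 8 dpp, a rise of 0.47 (standard error 0.127, limma adjusted p = 0.00184). Adult samples had 1.16, 0.690, 1.81 and 1.36 TPM, below every juvenile mouse.

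The ratio of Psmc3ip to Mnd1 within each mouse, which a scaling of the library does not move, started at 1.39 ± 0.332 in the mice of 8 dpp (SD, n = 3). It was 1.75 ± 0.267 in those of 12 dpp and 6.84 ± 1.98 in those of 18 dpp (SD, n = 5 each). As a difference of log2(TPM + 1) it did not change detectably from 10 to 12 dpp (0.07, two-sided exact permutation p = 0.675), when both genes rose. From 12 to 18 dpp it rose by 1.90 (exact permutation p = 0.00794, adjusted over 9 tests 0.0179), and from 8 to 18 dpp by 2.24 (exact permutation p = 0.0179, adjusted 0.0230). No mouse of 18 dpp overlapped with any of 8 or 12 dpp. The smallest p that these tests allow is 0.00794 for 5 against 5 mice and 0.0179 for 5 against 3. Psmc3ip stands here for the sum of its transcripts, not for its coding form alone. The coding Psmc3ip-201 had a mean of 8.75 TPM at 8 dpp, 18.3 at 12 dpp and 43.2 at 18 dpp. The retained-intron Psmc3ip-202 had means of 7.79, 10.8 and 76.0 TPM at these ages, and Mnd1 12.99, 17.8 and 18.6 TPM. The ratio of the coding form alone was not tested. In the adult samples Psmc3ip stood between 120 and 319 times above Mnd1. Mnd1 had only 0.690 to 1.81 TPM there, below the 3 TPM used to call a gene expressed.

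Brca2 (ENSMUSG00000041147, chromosome 5 from 150522630 to 150570329, plus strand), which loads the recombinase, was the only one of the 8 with no change that passed the test on TPM as deposited. It had 24.0, 17.4 and 22.6 TPM at 8 dpp, 22.7, 18.5, 19.8, 19.7 and 17.5 TPM at 10 dpp and 28.1, 23.0, 23.7, 22.0 and 22.7 TPM at 18 dpp. The ranges of all ages overlapped, and the means ran from 19.7 ± 1.95 TPM in the mice of 10 dpp to 23.9 ± 2.43 TPM in those of 18 dpp (SD, n = 5 each). No step passed the test, nor did the test for any difference among the 6 ages (limma adjusted p = 0.317). The change from 8 to 18 dpp was 0.16 (standard error 0.139, limma adjusted p = 0.302), and it passed with median-of-ratios scaling between mice (0.33, limma adjusted p = 0.0276), under which all 8 genes, Brca2 included, also passed the limma test for any difference among ages. Adult samples had 16.6, 18.4, 20.9 and 17.5 TPM, which overlapped with the juvenile range of 15.1 to 28.1 TPM.

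Meiob and Spata22, whose products bind single-stranded DNA together, made the largest steps of the list between 10 and 12 dpp. Meiob (ENSMUSG00000024155, chromosome 17 from 24804289 to 24839788, plus strand) had 4.26, 3.24 and 6.42 TPM at 8 dpp and 4.06, 3.72, 4.79, 3.95 and 2.94 TPM at 10 dpp. It then had 22.8, 21.6, 27, 21.5 and 23.7 TPM at 12 dpp, a rise of 2.32 (standard error 0.133, limma adjusted p = 2.53e-12). The 5 mice of 12 dpp were all above 21 TPM and the 8 younger mice all below 7 TPM. The mean moved on to 25.9 ± 5.02 TPM at 14 dpp, then to 31.7 ± 4.79 TPM at 16 dpp and finally to 37.9 ± 2.01 TPM by 18 dpp (SD, n = 5 each). None of these later steps passed (limma adjusted p from 0.0966 to 0.801), and the whole change from 8 to 18 dpp was 2.83 (standard error 0.153, limma adjusted p = 9.72e-15). Without mouse 6 at 14 dpp, the highest there at 33.5 TPM, the step from 14 to 16 dpp passed (0.38, limma adjusted p = 0.0388), and with median-of-ratios scaling the step from 16 to 18 dpp passed (0.43, limma adjusted p = 0.00796). Adult samples had 7.95, 7.84, 10.7 and 8.63 TPM, between the mice of 10 dpp and those of 12 dpp.

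Spata22 (chromosome 11 from 73329741 to 73346044, plus strand) was counted in these tables under ENSMUSG00000069825, together with a read-through transcript named Gm49340-201. Its own transcript Spata22-201 made up 97.1% ± 2.57 of that sum in the mice of 8 dpp (SD, n = 3) and 98.4% ± 0.580 of it in those of 18 dpp (SD, n = 5). The gene had 11.3, 8.98 and 11.6 TPM at 8 dpp, 7.48, 7.69, 11.3, 8.95 and 7.38 TPM at 10 dpp and 21.4, 24.2, 29.9, 19.5 and 22.8 TPM at 12 dpp. The step of 1.36 from 10 to 12 dpp (standard error 0.148, limma adjusted p = 1.55e-07) left no overlap between the ages. Spata22 rose again by 0.64 from 14 to 16 dpp (standard error 0.148, limma adjusted p = 0.00232), to 61.3, 45.9, 39.9, 33.6 and 40.9 TPM, of which mouse 1 was far the highest. At 18 dpp it had 47.3, 49.2, 53.1, 59.9 and 61.7 TPM. The change of 0.31 from 16 dpp did not pass (limma adjusted p = 0.0829) but did without mouse 1 of 16 dpp (0.43, limma adjusted p = 0.0136) and with median-of-ratios scaling (0.47, limma adjusted p = 0.00775). Adult samples had 25.6, 19.8, 34.4 and 28.7 TPM.

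The balance of Meiob and Spata22 moved both ways. At 8 and 10 dpp Meiob stood at 0.430 ± 0.106 (SD, n = 3) and 0.458 ± 0.0565 (SD, n = 5) of the TPM of Spata22. At 12 dpp the pair was level, with a ratio of 1.00 ± 0.0967 (SD, n = 5). On the log2(TPM + 1) scale the ratio rose by 0.96 from 10 to 12 dpp, with no overlap between the mice (two-sided exact permutation p = 0.00794, adjusted 0.0179). It then declined by a difference of -0.49 to 18 dpp (exact permutation p = 0.00794, adjusted 0.0179), where Meiob stood at 0.704 ± 0.0513 of Spata22 (SD, n = 5), still above 8 dpp by 0.58 (exact permutation p = 0.0179, adjusted 0.0230). In the adult samples the ratio lay between 0.300 and 0.397, lower than in any juvenile mouse of 12 dpp or older.

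Swi5 and Sfr1, whose proteins form a dimer, were the most abundant of the 8 genes and parted after 14 dpp. Swi5 (ENSMUSG00000044627, chromosome 2 from 32278816 to 32288075, minus strand) had 287, 265 and 300 TPM at 8 dpp, 293, 277, 275, 257 and 306 TPM at 10 dpp and 375, 334, 376, 313 and 354 TPM at 12 dpp (0.31 above 10 dpp, standard error 0.0646, limma adjusted p = 0.000800). It had 521, 437, 466, 461 and 472 TPM at 16 dpp and 611, 680, 581, 568 and 554 TPM at 18 dpp. Each of these ages lay wholly above the age before, with steps of 0.35 (standard error 0.0646, limma adjusted p = 0.000197) and 0.34 (standard error 0.0646, limma adjusted p = 9.12e-05). The rise from 8 to 18 dpp was 1.07 (standard error 0.0747, limma adjusted p = 1.25e-12), and adult samples had 763, 692, 693 and 680 TPM.

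Sfr1 (ENSMUSG00000025066, chromosome 19 from 47731682 to 47735588, plus strand) rose a little, stayed level and fell. It had 164, 160 and 147 TPM at 8 dpp, 187, 177, 180, 173 and 193 TPM at 10 dpp and 197, 207, 197, 208 and 194 TPM at 12 dpp. The ages did not overlap, but the first difference did not pass (0.21, limma adjusted p = 0.0597) and the second passed narrowly (0.14, standard error 0.0486, limma adjusted p = 0.0409). That second call was lost under 6 of the 12 other settings and without any of 7 of the 10 mice compared (limma adjusted p from 0.0501 to 0.119). From 203, 206, 193, 190 and 195 TPM at 16 dpp it fell to 145, 168, 158, 166 and 174 TPM at 18 dpp. The fold change was -0.28 (standard error 0.0486, limma adjusted p = 2.99e-05), or -0.17 relative to the median of all genes, and it missed the threshold with median-of-ratios scaling (-0.12, limma adjusted p = 0.0755). At 18 dpp Sfr1 overlapped with the values of 8 dpp (0.04, limma adjusted p = 0.497), although with median-of-ratios scaling it was higher at 18 dpp (0.22, limma adjusted p = 0.00282). Adult samples had 81.8, 82.2, 90.2 and 77.3 TPM.

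Swi5 stood at 1.55 ± 0.0367 times the TPM of Sfr1 at 10 dpp, 1.75 ± 0.179 times at 12 dpp and 3.71 ± 0.421 times at 18 dpp (SD, n = 5 each), and between 7.68 and 9.33 times in the adult samples. The change on the log2(TPM + 1) scale from 10 to 12 dpp did not pass (0.17, two-sided exact permutation p = 0.0635, adjusted 0.0714). The ratio rose by 1.08 from 12 to 18 dpp (exact permutation p = 0.00794, adjusted 0.0179) and by 1.03 from 8 to 18 dpp (exact permutation p = 0.0179, adjusted 0.0230), with no overlap in either case. Swi5 stands here for the sum of its transcripts, not for its coding forms alone. From 8 to 18 dpp the mean of the main coding form Swi5-207 went from 258 to 321 TPM, and that of the coding Swi5-204 from 11.9 to 66.6 TPM. The mean of Swi5-206, annotated as a target of nonsense-mediated decay, went from 3.44 to 173 TPM.

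**Figure D2:**
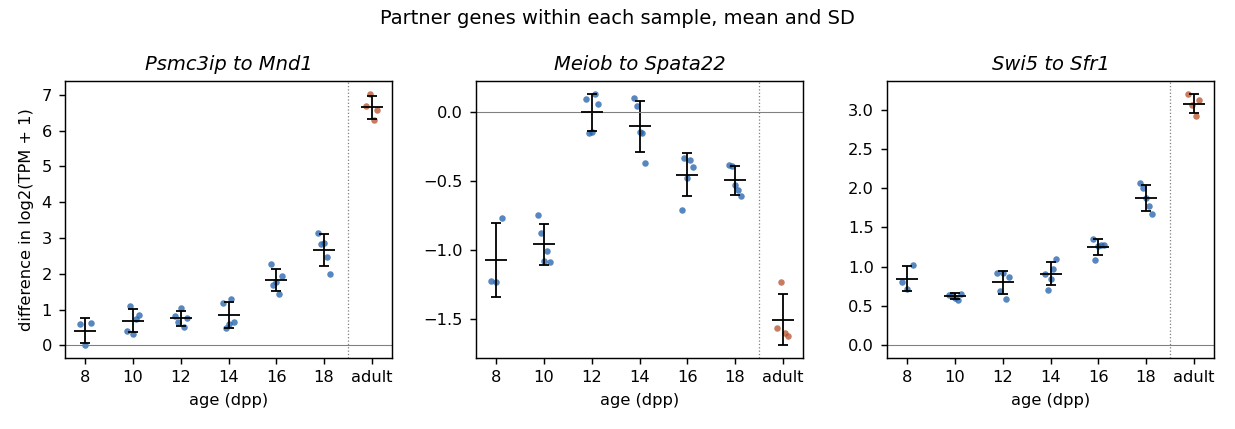
Difference in log2(TPM + 1) between partner genes within each mouse (blue) and each adult sample (orange), with mean and SD, by age in dpp, where 0 is an equal level. Each gene is the sum of its transcripts, coding or not. Psmc3ip moves away from Mnd1 and Swi5 from Sfr1 after 14 dpp, and Meiob comes level with Spata22 at 12 dpp.

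Taken by interval, most of the 8 genes rose between 10 and 12 dpp, and 4 of them changed again after 14 dpp. From 8 to 10 dpp none of the 8 passed the limma test (adjusted p from 0.0597 to 1, and 1 of 8 at an unadjusted p under 0.05), while 0.977% of all genes rose and 0.226% fell. From 10 to 12 dpp 7 of 8 rose, all but Brca2, where 12% of all 20368 genes rose and 9.39% fell. The median change of the 8 was 0.54 there, and that of all genes 0.01. From 12 to 14 dpp none passed (adjusted p from 0.610 to 0.982, and 0 of 8 at an unadjusted p under 0.05), where 0.157% of all genes rose and 0.0147% fell. Dmc1, Mnd1, Brca2 and Sfr1 did not pass in either direction from 14 to 16 dpp, nor did Meiob, while Psmc3ip, Spata22 and Swi5 rose, 3 of 8 against 12.7% of all genes, and 11.3% of all genes fell. From 16 to 18 dpp Psmc3ip and Swi5 rose and Sfr1 fell, 2 and 1 of 8, shares near or under those of all genes, where 23.4% of all genes rose and 30.6% fell. Between 10 and 12 dpp, where 7 of the genes rose, the summed Sertoli markers overlapped (7042 to 7842 and 7100 to 8005 TPM), a sum carried mostly by Clu (means of 5280.6 and 5497 TPM). Within that list Amh (336 to 207 TPM), Gata4 (221 to 144 TPM) and Wt1 (384 to 250.8 TPM) had lower means at 12 dpp without overlap between mice, and Cldn11 (640.4 to 706 TPM) and Amhr2 (502 to 589 TPM) higher ones. The 5 macrophage markers (Cd68, Adgre1, Csf1r, Lyz2 and C1qa) summed to between 26.1 and 39.1 TPM at 10 dpp and between 46.5 and 86.6 TPM at 12 dpp. The part of these cells in the members' changes was not tested.

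Over the whole series, from 8 to 18 dpp, 6 of 8 genes rose and none fell, against 31.8% of all genes that rose and 36.3% that fell, and the median change of the 8 was 0.77 against -0.09 for all genes. Tested for any difference among the ages, 7 of 8 passed, close to the 77.6% of all genes that did. Scaling by the median of ratios moved the median of all genes from -0.11 to 0.03 between 16 and 18 dpp and from -0.09 to 0.05 between 8 and 18 dpp. With it, 63.0% of the calls among all genes from 16 to 18 dpp were rises, in place of 43.4%, and 66.3% from 14 to 16 dpp in place of 53.0%, while quantile normalization gave 41.6% from 14 to 16 dpp and 37.7% from 8 to 18 dpp in place of 46.7%. Relative to the median of all genes, the changes from 8 to 18 dpp were 2.92 for Meiob, 2.81 for Psmc3ip, 2.34 for Spata22, 1.17 for Swi5, 0.57 for Mnd1 and 0.45 for Dmc1, and 2.95, 2.84, 2.37, 1.2, 0.59 and 0.48 after median-of-ratios scaling.

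**Figure D3:**
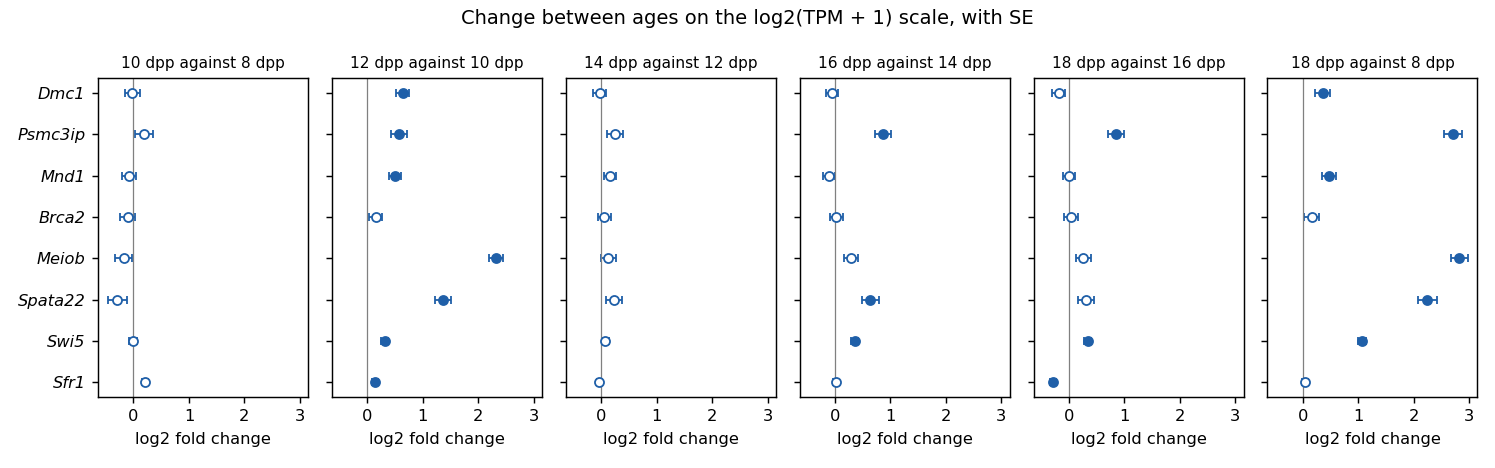
Log2 fold change of each of the 8 genes on the log2(TPM + 1) scale for each pair of neighbouring ages and for 18 against 8 dpp, with the limma standard error as whiskers, filled where the adjusted p was under 0.05. From 10 to 12 dpp 7 of 8 points are filled to the right of 0, from 12 to 14 dpp none is filled, and from 16 to 18 dpp Psmc3ip and Swi5 lie to the right and Sfr1 to the left.

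The order of the levels changed accordingly. At 8 dpp it ran from Swi5 (284 ± 17.4 TPM) and Sfr1 (157 ± 9.01) over Dmc1 (35.9 ± 6.58), Brca2 (21.4 ± 3.48), Psmc3ip (18.0 ± 4.22), Mnd1 (12.99 ± 0.0907) and Spata22 (10.6 ± 1.44) to Meiob (4.64 ± 1.62, SD, n = 3 each). Of these neighbours only Brca2 and Psmc3ip overlapped between mice. At 18 dpp Swi5 (599 ± 50.1) and Sfr1 (162 ± 11.1) were followed by Psmc3ip (122.7 ± 20.9), Spata22 (54.2 ± 6.37), Dmc1 (46.6 ± 9.82), Meiob (37.9 ± 2.01), Brca2 (23.9 ± 2.43) and Mnd1 (18.6 ± 3.00, SD, n = 5 each). There the ranges of Sfr1 and Psmc3ip, Spata22 and Dmc1, Dmc1 and Meiob, and Brca2 and Mnd1 overlapped. In adult spermatocytes Psmc3ip (221 ± 2.82) stood above Sfr1 (82.9 ± 5.37), and Mnd1 (1.26 ± 0.465) and Dmc1 (0.708 ± 0.223, SD, n = 4 each) came last, with overlapping ranges.

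Transcripts of Psmc3ip and Swi5 changed in share as well as in sum. The percentage that a transcript took of the summed TPM of the gene was compared in 10 mice of 16 or 18 dpp with 8 mice of 8 or 10 dpp, and a change counted with a limma adjusted p under 0.05 and at least 20 points. Of the members' transcripts, 9 could be tested, all of Psmc3ip and Swi5, since Dmc1, Mnd1, Brca2, Meiob and Sfr1 had a single transcript in the table and the second transcript under Spata22 was too low. The changes took in 4 of the 9, of which 2 gained and 2 lost share, where 1.16% of all tested transcripts gained and 0.949% lost. The shares of a gene add up to the whole, so a gain and a loss in the same gene are not separate events.

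Psmc3ip-202, with the retained intron, took 53.9%, 40.4% and 34.8% of the gene at 8 dpp and 30.5%, 30.6%, 29.2%, 36.6% and 16.9% at 10 dpp. It took 55.0%, 54.0%, 55.0%, 56.4% and 58.3% at 16 dpp and 63.6%, 58.9%, 60.2%, 67.8% and 59.5% at 18 dpp. All 10 older mice were above all 8 younger ones, a gain of 24.8 points (standard error 3.54, limma adjusted p = 0.000144). The coding Psmc3ip-201 lost 22.9 points (standard error 3.57, limma adjusted p = 0.000321), and the loss was -19.9 points, under the 20 required, with mice 1 to 3 alone (limma adjusted p = 0.0145). In TPM both transcripts rose from 8 to 18 dpp, Psmc3ip-202 from 7.79 ± 2.86 to 76.0 ± 12.9 and Psmc3ip-201 from 8.75 ± 1.90 to 43.2 ± 9.65 (SD, n = 3 and n = 5). Their log2 fold changes were 3.16 and 2.17 (limma adjusted p = 1.96e-08 and 2.51e-10), in a test of each transcript on its own that was added after the data were seen, in which 21.1% of all transcripts rose. Psmc3ip-201 thus rose too, and at 18 dpp Psmc3ip-202 held over 58% of the gene's TPM in every mouse. The 2 annotated transcripts also differ outside the intron, since Psmc3ip-202 has 1030 bases and Psmc3ip-201 has 1291. Reads within the intron were not examined, so these shares are estimates for whole transcripts and not a measure of intron retention alone.

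Swi5-206, with the extra exon and early stop, took between 0.559% and 1.72% of the gene in the 8 mice of 8 and 10 dpp. Its share was 4.10%, 3.23%, 3.89%, 3.73% and 4.09% at 14 dpp, 20.4%, 13.5%, 9.45%, 9.70% and 15.9% at 16 dpp and 33.7%, 31.8%, 33.7%, 23.8% and 20.5% at 18 dpp. The gain of 20.1 points (standard error 3.24, limma adjusted p = 0.000412) stood just over the 20 required and was under 20 points without any of mice 1 to 4 at 18 dpp, at 18.8 points at the lowest, always with a limma adjusted p of at most 0.00111. The coding Swi5-207 went from 90.0% to 62.0% of the gene, a loss of 28 points (standard error 4.44, limma adjusted p = 0.000365). In TPM Swi5-207 went from 258 ± 15.9 in the mice of 8 dpp (SD, n = 3) to 321 ± 46.6 in those of 18 dpp (SD, n = 5), a rise of 0.30 (limma adjusted p = 0.0309), and Swi5-206 went from 3.44 ± 1.31 to 173 ± 46.0 TPM (5.29, limma adjusted p = 7.23e-13). Another coding transcript, Swi5-204, rose from 11.9 ± 4.31 to 66.6 ± 22.0 TPM (2.37, limma adjusted p = 0.00153). Swi5-206 and Swi5-207 also differ outside the extra exon of 284 bases, since Swi5-206 has 919 bases in all and Swi5-207 has 768. Reads within that exon were not examined, so these shares too are estimates for whole transcripts.

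**Figure D4:**
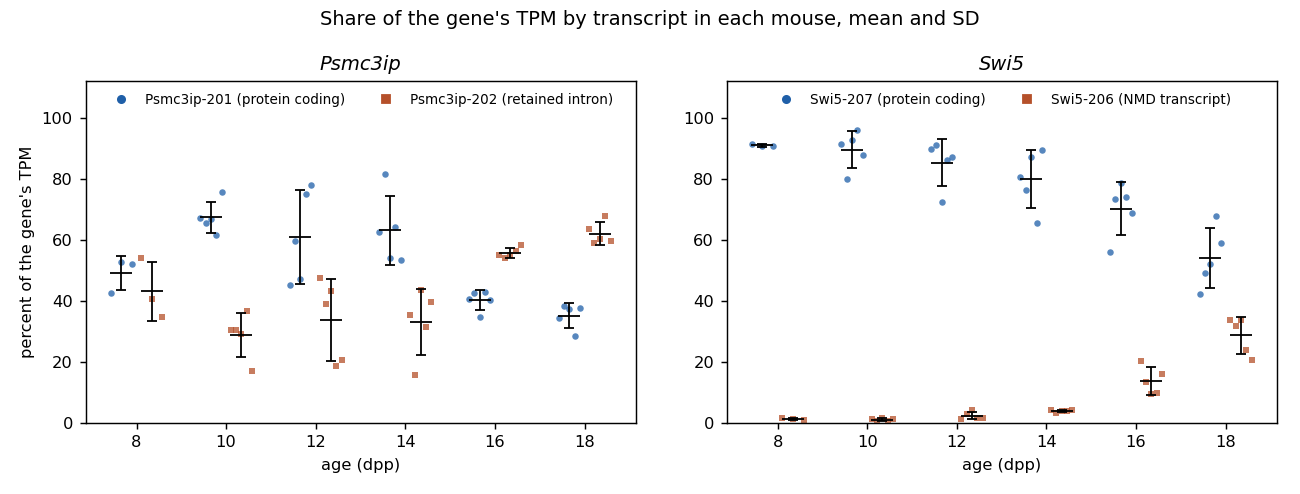
Percentage of the gene's TPM taken by the coding transcript (blue circles) and by the retained-intron or nonsense-mediated decay (NMD) transcript (orange squares) of Psmc3ip and Swi5 in each juvenile mouse by age in dpp, with mean and SD. At 16 and 18 dpp Psmc3ip-202 lies between 54.0% and 67.8%, above Psmc3ip-201, and Swi5-206 reaches between 20.5% and 33.7% at 18 dpp.

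Both genes share exonic bases with a gene on the other strand, and the libraries were not stated to keep strand, so that reads of the 2 genes cannot be told apart there. Psmc3ip-201 shares 385 of its 1291 exonic bases with Mlx and Psmc3ip-202 shares 76 of 1030, while Swi5-207 shares 4 of 768 bases with Golga2 and Swi5-206 none. Mlx had 16.8 ± 1.49 TPM at 8 dpp (SD, n = 3), 19.3 ± 3.00 at 18 dpp (SD, n = 5) and 7.77 ± 2.10 in the adult samples (SD, n = 4). Golga2 had 61.8 ± 0.646, 82.9 ± 2.31 and 48.0 ± 3.92 TPM in the same groups. Brca2 overlaps 4 small non-coding or antisense genes and Dmc1 a microRNA gene, while Mnd1, Meiob and Sfr1 overlap no annotated gene.

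A list of 26 other genes of strand exchange was read in the same way, all of them expressed. From 8 to 18 dpp 11 of 26 rose and 4 fell, where 31.8% of all genes rose and 36.3% fell, and their median change was 0.18 against 0.77 for the 8 members and -0.09 for all genes. The largest rises were in Hsf2bp, which binds BRCA2 in germ cells, from 14.3 ± 4.79 to 55.6 ± 7.68 TPM (1.92, limma adjusted p = 1.81e-09), in Rad51ap2, from 3.65 ± 2.12 to 14.9 ± 4.30 TPM (1.86, limma adjusted p = 9.76e-08), and in Fignl1, which encodes an ATPase that limits recombinase filaments, from 19.7 ± 2.82 to 70.7 ± 4.16 TPM (1.80, limma adjusted p = 1.35e-13). The largest falls were in the BRCA2-binding Bccip, from 88.1 ± 9.01 to 56.3 ± 8.82 TPM (-0.65, limma adjusted p = 1.08e-06), in Brca1, from 21.4 ± 1.75 to 14.5 ± 0.253 TPM (-0.53, limma adjusted p = 3.57e-05), and in the replication protein A subunit Rpa2, from 120 ± 8.44 to 93.2 ± 12.95 TPM (-0.37, limma adjusted p = 0.000392, SD, n = 3 and n = 5 throughout). Of the other subunits of that complex, Rpa1 rose from 91.7 ± 2.69 to 181 ± 54.4 TPM (0.92, limma adjusted p = 3.07e-06). The change of Rpa3 did not pass (-0.06, limma adjusted p = 0.687).

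By interval, 6 of 26 rose and none fell from 10 to 12 dpp, where 12% of all genes rose and 9.39% fell, among them Rad51ap2 by 1.74 (limma adjusted p = 5.94e-07) and Hsf2bp by 0.81 (limma adjusted p = 0.000892). None passed the limma test from 8 to 10 dpp or from 12 to 14 dpp, where 1 and 6 of the 26 had an unadjusted p under 0.05. From 14 to 16 dpp 6 rose and Brca1 fell, where 12.7% of all genes rose and 11.3% fell. From 16 to 18 dpp 8 of 26 rose, a share somewhat above the 23.4% of all genes, and 5 fell, a share under the 30.6% of all genes. In the adult samples Rad51ap2, at 0.283 ± 0.182 TPM (SD, n = 4), was near the bottom of the range like Dmc1 and Mnd1, while Hsf2bp had 80.05 ± 3.54 TPM and Fignl1 97.4 ± 8.54 TPM, levels that, as for Psmc3ip, were above those of 18 dpp.

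**Figure D5:**
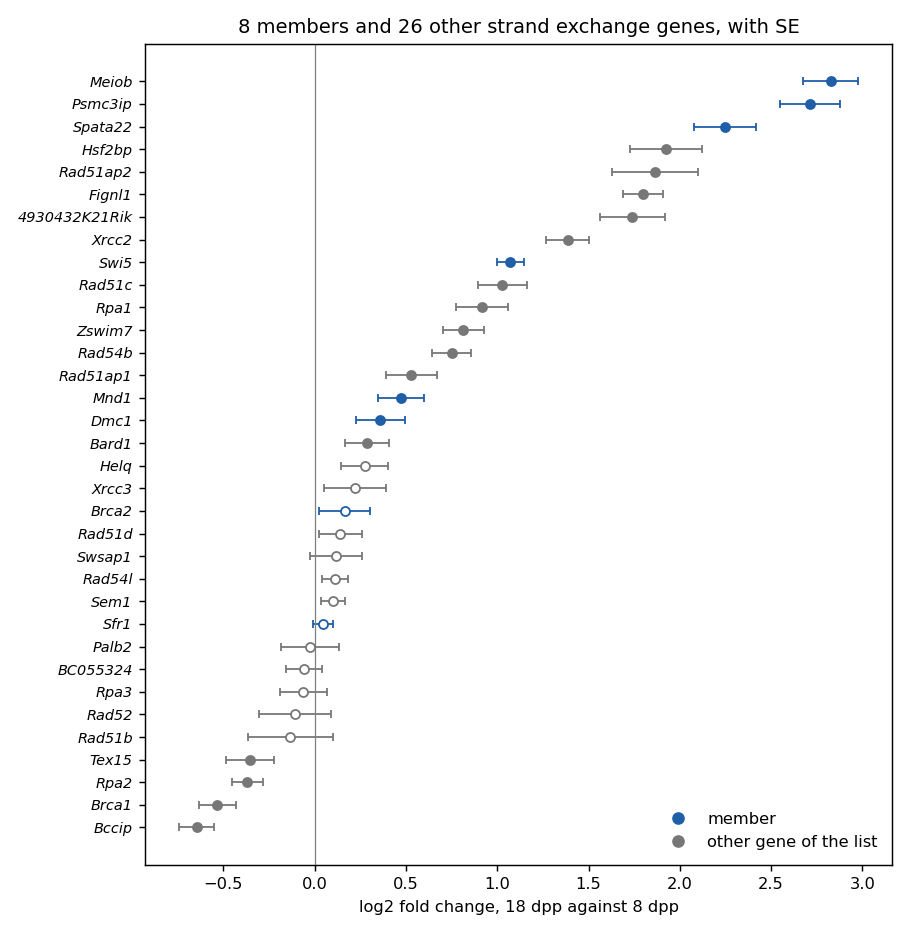
Log2 fold change from 8 to 18 dpp, with limma standard errors, of the 8 members (blue) and the 26 other strand exchange genes (grey), sorted by size and filled where the adjusted p was under 0.05. Meiob, Psmc3ip and Spata22 lie at the top, above Hsf2bp at 1.92, while Brca2 and Sfr1 lie among the open points near 0.

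The shape of each profile was compared with that of every expressed protein-coding gene by the root mean square difference between the 6 age means of log2(TPM + 1), after each gene was centred on its own mean. A flat gene has many neighbours by this measure, so a small distance means less for a gene that changed little. Among the members, the smallest distance was between Dmc1 and Mnd1 (0.0926), and Psmc3ip was nearer to Spata22 (0.322) than to its partner Mnd1 (0.785). Meiob and Spata22 differed by 0.397, and Swi5 and Sfr1 by 0.414. Most like Dmc1 over the 6 ages were Slc47a2 (0.0330) and Atp6v0b (0.0334), most like Mnd1 were Fancc (0.0297) and Dzip3 (0.0456), and most like Psmc3ip were Slc8a2 (0.0504) and Ift22 (0.0624). For Spata22 the nearest were Hormad1 (0.0487), with 58.7 TPM at 8 dpp and 291 TPM at 18 dpp on average, and Ly6k (0.0789). For Meiob the nearest were Dmrtc1b (0.137) and Il17re (0.189). Swi5 was nearest to Mphosph8 (0.0138) and Pmpcb (0.0185), Brca2 to Hsp90b1 (0.0164) and Hnrnpu (0.0198), and Sfr1 to Rilp (0.0311) and Mrpl3 (0.0323).

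Promoter sequences were read to see whether genes of one profile shared letters. RefSeq sequences of GRCm38.p6 from 250 bases before to 50 bases after the start were held for 7 of the 8 genes, all but Meiob. The 250 bases before the start are printed for Dmc1 and Mnd1, the members at the smallest distance in profile, and for Psmc3ip and Swi5, which climbed to 18 dpp, all on the minus strand, with a CCAAT box on either strand in capitals.
Dmc1 (chr15:79605110-79605359): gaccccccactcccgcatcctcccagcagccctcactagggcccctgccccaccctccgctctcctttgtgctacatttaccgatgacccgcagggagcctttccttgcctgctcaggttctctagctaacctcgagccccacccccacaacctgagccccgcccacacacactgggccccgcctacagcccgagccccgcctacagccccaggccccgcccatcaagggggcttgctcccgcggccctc
Mnd1 (chr3:84155787-84156036): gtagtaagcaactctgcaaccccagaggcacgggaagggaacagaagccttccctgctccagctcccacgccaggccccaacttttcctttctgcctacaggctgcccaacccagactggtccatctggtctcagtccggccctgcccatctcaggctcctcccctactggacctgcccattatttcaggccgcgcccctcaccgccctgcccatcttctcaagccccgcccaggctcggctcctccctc
Psmc3ip (chr11:101095436-101095685): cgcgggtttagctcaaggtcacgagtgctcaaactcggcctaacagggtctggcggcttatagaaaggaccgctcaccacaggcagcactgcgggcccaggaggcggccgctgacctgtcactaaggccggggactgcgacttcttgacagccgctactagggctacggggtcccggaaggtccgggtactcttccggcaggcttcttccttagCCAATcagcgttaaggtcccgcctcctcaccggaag
Swi5 (chr2:32288070-32288319): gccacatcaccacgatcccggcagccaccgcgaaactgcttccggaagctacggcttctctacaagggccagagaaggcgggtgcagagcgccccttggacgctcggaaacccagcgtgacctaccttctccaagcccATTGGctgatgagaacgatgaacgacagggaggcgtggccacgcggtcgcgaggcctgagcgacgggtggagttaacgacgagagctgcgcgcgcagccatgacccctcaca
The letters CCAAT stood in 4 of the 7 promoters, those of Psmc3ip, Swi5, Spata22 and Sfr1, against 37.4% of 32851 promoters of the same length. The E2F motif GGCGGGAA was found in Spata22, against 2.19% of promoters, and is in capitals in the 30 bases around it, plus strand.
Spata22 (chr11:73329725-73329754): gggttttcagaGGCGGGAAgttccgcgtgg
The CRE motif TGACGTCA stood in Brca2, against 1.79% of promoters. None of the 7 held CACGTG (E-box, 7.15% of promoters), GCGCATG (NRF1 core, 3.91%), CNCCTCAG (STRA8, 7.94%), AACTGNC (MYB, 12.8%) or GTTGCCA (RFX motif, 4.38%). Both strands were searched, no motif overlapped another, and Dmc1 and Mnd1 held none of the 8 motifs. A match is a run of letters in this window and says nothing of binding, and the lack of one says only that these letters are absent there.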

How the data were processed

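RNA-seq was made from germ cells of single juvenile mice and from pooled adult spermatocytes. The authors aligned reads with Bowtie 1.0.0 and estimated TPM with RSEM 1.2.8 against mm10, with Ensembl 75, NONCODE version 4 and piRNA precursor transcripts. The deposited juvenile gene table held a score, exp(log2(TPM + 1)) - 1, which was converted back to TPM. After conversion 20288 of 20368 genes lay within 0.2 TPM of the sum of their transcripts in the deposited TPM table, and the 8 members within 0.01 TPM. TPM keeps no counts, so depth and counting error were unknown, and the adult TPM were normalized in a table of their own.

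Log2(TPM + 1) of 20368 genes with at least 3 TPM in at least 1 mouse was fitted with limma 3.58.1 (R 4.3.3), with all 6 ages in one fit and a variance trend, and adjusted p-values (Benjamini-Hochberg) under 0.05 counted as changes. Partner ratios were tested by two-sided exact permutation of mice, adjusted over 9 tests. Transcript shares were tested with limma in genes of at least 3 TPM. The fits were tested on simulated data. Groups came from the sample labels. The labels gave mouse numbers shared between ages, which were tried as a block. Values are given for all 8 members, for the 3 largest rises and 3 largest falls from 8 to 18 dpp among 26 other strand exchange genes, and for the 2 protein-coding genes nearest in profile to each member. Rpa1 and Rpa3 are given beside Rpa2 as subunits of the same complex. The members, lists and tests were chosen with earlier results of these data known. A further gene and its comparisons are not reported here. Alternatives were other pseudocounts, filters, scalings, variance priors, covariates and sets of mice. Gene names and positions came from GENCODE M21 (GRCm38), and 7 of 8 members matched by gene identifier, with Spata22 matched by its transcript. Other steps used Python 3.11.15 with scipy 1.17.1, pandas 2.3.3 and numpy 2.4.6, and plots were drawn with matplotlib 3.10.9.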

Additional observations from a re-analysis of the deposited data

Results flagged for a closer look

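Among 91 groups of 4 or 5 values examined, 4 had a value far from the others by Dixon's criterion at the 95% level, which chance gives in about 1 of 20 groups. Brca2 in mouse 1 at 18 dpp had 28.1 TPM, and the nearest of the other mice had 23.7 TPM. In adult sample 1 Swi5 had 763 TPM, where the next sample had 693 TPM. The log2 ratio of Meiob to Spata22 was -1.23 in adult sample 2, and -1.57 in the nearest of the other samples. Swi5-207 took 72.2% of the gene in mouse 3 at 12 dpp, where the next mouse had 86.0%.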

How the results depend on the processing

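Of 1920 recomputed fold changes of the members, 1891 kept their side of the threshold, 20 lost the call and 9 gained one. No call that passed changed direction. Small differences that had not passed did change sign in some settings, as for Dmc1 from 14 to 16 dpp (-0.06 to 0.14 over the settings other than leaving out 1 mouse). Without 1 mouse at a time, the members that passed numbered 0 to 1 from 8 to 10 dpp (Sfr1, without mouse 1 or 5 of 18 dpp), 6 to 7 from 10 to 12 dpp, 0 from 12 to 14 dpp, 3 to 4 at each of the next steps and 5 to 6 from 8 to 18 dpp. Median-of-ratios scaling brought all 8 past the threshold from 8 to 18 dpp and for any difference among ages. Partner ratio calls, 7 of 9, numbered 4 to 8 without 1 mouse at a time. Without any single mouse of 8 dpp, the 3 calls against that age were lost (exact permutation adjusted p = 0.0612), where 5 against 2 mice allow no p under 0.0476 before adjustment, and all 3 stood at that limit. With mice 1 to 3 alone the calls fell to 0 (exact permutation adjusted p = 0.113), since 3 against 3 mice cannot reach the threshold. Calls over all genes from 8 to 10 dpp, 245, ranged from 106 to 305, and from 12 to 14 dpp, 35, from 0 to 129. With the replicate block, member counts were 0, 6, 0, 3 and 3 over the 5 steps and 6 from 8 to 18 dpp (Sfr1 lost from 10 to 12 dpp), and partner ratio calls fell to 0 (exact permutation adjusted p from 0.113), in designs too small to reach the threshold. The numbers shared only a label. Over 57 same-numbered pairs, the correlation of deviations had a median of 0.015 (from -0.25 to 0.25), 3 pairs were over 0.1, and 8 of 28 mice correlated best with their own number. Depth is unknown for TPM, so the precision at low levels, as for Meiob at 8 and 10 dpp and Dmc1 and Mnd1 in adult samples, rests on the spread between samples alone.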
